A study of Drosophila melanogaster with 9 samples.

Results

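The transcripts described here belong to 10 genes of the Crumbs, Par and Scribble polarity complexes in serially transplanted Drosophila metastases. They are crb, sdt and Patj of the Crumbs complex, baz, par-6 and aPKC of the Par complex, dlg1, scrib and l(2)gl of the Scribble group, and yrt, whose product restrains Crumbs. The 10 genes were chosen with earlier results of these data known. Their probe sets were all those that the platform annotation pairs with 1 of these symbols, taken with no use of the measured values. This gave 23 of the 18769 probe sets tested, for 10 of 11982 different gene symbols. The gene symbols crb, Patj, baz, par-6, l(2)gl and yrt have 1 probe set each, sdt has 6, scrib 5, dlg1 4 and aPKC 2. Where a gene has more than 1, its brightest (the highest mean over all arrays) stands for it, and the others are given beside it.

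Epithelial cells keep a free apical side apart from the sides that face their neighbors and the basal lamina. The Crumbs complex marks and enlarges the apical membrane, the Par complex sets the border at the adherens junctions, and the Scribble group holds the basolateral side. In the fly, loss of the Scribble group makes imaginal disc epithelia overgrow and lose their layered form, while enterocytes of the adult fly midgut polarize without most of these genes.

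The tumors came from MARCM clones in the midgut of adult females. These clones lacked Apc and Apc2 and expressed UAS-RasV12, UAS-Sna and UAS-GFP under esg-Gal4, a driver of intestinal progenitor cells; all 9 samples share this genotype (Apc-Ras-Sna). Abdominal metastases from 3 flies were grafted into adult hosts and cut again at each round, and RNA was taken at rounds T1, T2 and T10, with 3 arrays a round. The rounds differ in the number of transplants and in the time of growth together, which cannot be told apart. The question that the rounds address is how the transcripts of these tumors differ as the metastases, disorganized at first, grow on. The labels speak of technical replicates within a round although the design speaks of 3 flies, so the p-values measure a spread that may be technical in part. These are bulk samples, in which fewer cells of a type and less RNA per cell cannot be told apart.

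Values are log2 expression after RMA, and array medians ranged from 6.47 to 6.71. T2 replicate 3 resembled T10: its correlation over probe sets, which are no independent replicates, was 0.964 to 0.984 with the T10 arrays but 0.932 and 0.950 with the remaining T2 arrays. Results that rest on it are given with and without it. Differences between rounds were tested in limma, fitted to all 9 arrays, and p-values were adjusted by Benjamini-Hochberg over the 18769 probe sets, with 0.05 as the threshold. The progenitor gene esg, which defines the cells of origin, was high in every round, at 10.89 ± 0.361 in T1, 10.69 ± 0.310 in T2 and 9.87 ± 0.589 in T10 (SD, n = 3), and was 1.01 log2 units lower in T10 than in T1 (adjusted p = 0.137). The 2 progenitor markers with a probe set had a mean level of 10.09 to 11.00 in the T1 arrays and 9.75 to 9.98 in T10. Markers of enterocytes (4 genes with a probe set), muscle (4), ovary (6) and hemocytes (6) had mean levels of 4.32 to 6.95 in every array and overlapped between T1 and T10. Of the 4 enterocyte genes, nub and betaTry were higher in every T10 array than in every T1 array (by 1.55 and 0.09 log2 units), mex1 was lower (a change of -3.45), and Jon65Aiii overlapped. Their adjusted p in limma on all 9 arrays was 0.131, 0.624, 0.164 and 0.982, and mex1 passed for T10 and T1 alone (0.0155). Of all probe sets, 12.9% were separated upward and 15.1% downward between T1 and T10. Both betaTry and Jon65Aiii were dim, at percentiles 13.4 and 7.84 of mean level among all probe sets. The mean of the 6 fat body markers was 6.06 to 6.67 in the T1 and T10 arrays and reached 8.43 in a T2 array. The list mean of the neuron markers, through 1 gene, and the 1 enteroendocrine marker were lower in T10 than in T1 without overlap. Such downward separation was seen at 15.1% of all probe sets. The mean of the 3 neuron markers was 8.07 to 8.42 in the T1 arrays and 7.81 to 8.00 in T10, where nSyb was lower (a change of -0.72, adjusted p = 0.0899 on all 9 arrays and 0.0486 without T2 replicate 3) and elav and brp overlapped (changes of -0.08 and -0.04). The 1 enteroendocrine marker with a probe set, pros, read 4.26 to 4.86 in T1 and 3.93 to 4.08 in T10 (adjusted p = 0.110). It was dim, at percentile 8.82 of mean level among all probe sets.

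Between T1 and T10 the members did not shift as a block. By their brightest probe sets, the apical genes crb and sdt and the lateral gene scrib were about 2-fold higher in T10. The 5 probe sets of scrib disagreed, and their mean was 0.20 log2 units higher (adjusted p = 0.683 in limma). In T10 yrt was slightly higher, baz was lower, and Patj, par-6, aPKC, dlg1 and l(2)gl overlapped between the rounds. In limma on all 9 arrays 0 of the 10 genes and 0 of the 23 probe sets passed, against a background of 2 probe sets, or 0.0107%; the members' adjusted p ran from 0.0927 to 0.891. An unadjusted p under 0.05 was reached by 5 member genes (crb, sdt, scrib, baz and yrt), and by 20.8% of all probe sets. A fit of T10 and T1 alone called 1 member, scrib, against 5.98% of all probe sets, and the fit without T2 replicate 3 called crb and scrib, against 7.62%. Complete separation of the 3 T10 arrays above the 3 T1 arrays was seen for 4 of 10 genes (crb, sdt, scrib and yrt), against 12.9% of all probe sets, and separation below them for 1 (baz), against 15.1%. The median log2 change of the members was 0.23, that of all probe sets was -0.01, and 7 members were higher and 3 lower.

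**Figure D1:**
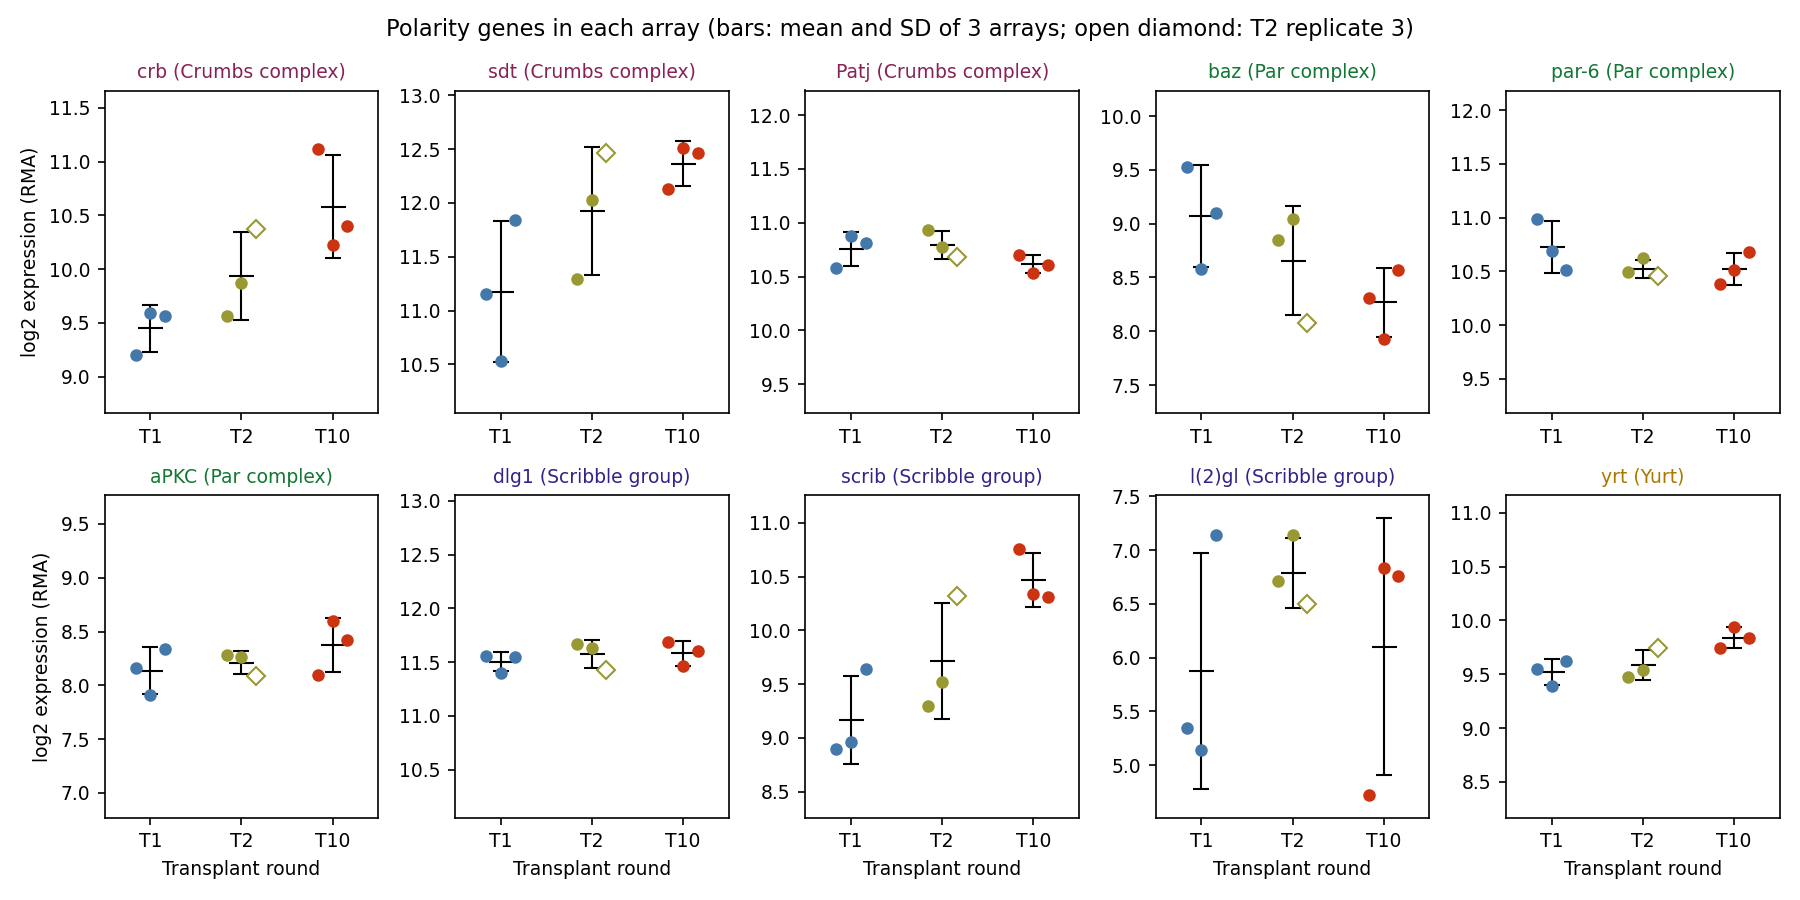
Each panel plots the log2 expression (RMA) of 1 polarity gene, by its brightest probe set, in the 9 arrays by transplant round; dots are single arrays, the open diamond is T2 replicate 3, and bars give the mean and SD of 3 arrays. The T10 arrays of crb, sdt, scrib and yrt all lie above those of T1, the T10 arrays of baz lie below them, and the other 5 genes overlap.

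In the Crumbs complex, crb encodes the transmembrane protein whose short cytoplasmic tail recruits the rest of the complex. Its probe set 1628146_at read 9.20, 9.59 and 9.56 in T1, 9.56, 9.87 and 10.37 in T2, and 11.12, 10.22 and 10.40 in T10. The lowest T10 array was thus above the highest T1 array, while T2 overlapped both neighbors, T10 only through its replicate 3. The means were 9.45 ± 0.217, 9.93 ± 0.409 and 10.58 ± 0.476 (SD, n = 3), in the order T1, T2, T10, and neither neighbor in that order differed past the threshold. T10 was 1.13 log2 units above T1 (standard error 0.284, 95% interval 0.47 to 1.79), or 2.19-fold, with an adjusted p of 0.0996 in limma on all 9 arrays, 0.0669 for T10 and T1 alone and 0.0414 without T2 replicate 3. The study listed crb on these same samples, so its direction is not independent evidence.

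Stardust, the product of sdt, is the scaffold that binds the Crumbs tail and keeps it at the apical membrane. Its brightest probe set, 1631732_s_at, read 11.15, 10.53 and 11.84 in T1, 11.29, 12.03 and 12.46 in T2, and 12.13, 12.51 and 12.46 in T10. The T1 arrays were widely spread and the T10 arrays were close together, above all of T1. The change from T1 to T10 was 1.19 log2 units (standard error 0.382, 95% interval 0.31 to 2.08), a 2.29-fold higher level, with limma's adjusted p at 0.139 on all 9 arrays and 0.0913 without T2 replicate 3.

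The other probe sets of sdt fell into separate kinds. Probe set 1631568_a_at read 8.78, 7.93 and 9.59 in T1, 9.08, 9.70 and 10.17 in T2, and 10.71, 10.56 and 10.39 in T10. Probe set 1639290_at read 6.79, 6.91 and 7.45 in T1, 7.08, 7.36 and 7.88 in T2, and 8.13, 8.43 and 8.14 in T10. In both, each T10 array exceeded each array of T1 and of T2. The T10 level was 3.45-fold that of T1 for 1631568_a_at (1.79 log2 units, standard error 0.422) and 2.27-fold for 1639290_at (1.18, standard error 0.244), with adjusted p of 0.0930 and 0.0866 in limma on all 9 arrays. The latter probe set also passed for T10 and T1 alone (adjusted p = 0.0312), and both passed without T2 replicate 3 (adjusted p = 0.0429 and 0.0171). A dimmer probe set, 1633721_at, went from a mean of 5.03 in T1 to 5.78 in T10, 0.75 log2 units higher (adjusted p = 0.102 in limma).

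The remaining pair of sdt probe sets gave no such difference. Probe set 1623665_at read 5.42, 5.11 and 5.27 in T1, 5.10, 4.73 and 4.96 in T2, and 5.12, 5.44 and 5.07 in T10, and 1635004_at had round means of 4.03, 3.86 and 3.98. Their T10 minus T1 changes were -0.06 and -0.05 log2 units, with 95% intervals of -0.40 to 0.29 and -0.33 to 0.23. Both belong to the probe sets below the median level, as does 1633721_at. Counted together, 4 of the 6 sdt probe sets were higher in every T10 array than in every T1 array and the other 2 overlapped. Of all probe sets, 12.9% were separated upward in this way. The sdt probe sets read 1 gene on the same arrays, so they are not independent of each other.

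Patj, a scaffold of many PDZ domains that is carried by Stardust, did not follow its partners. It read 10.58, 10.88 and 10.81 in T1, 10.93, 10.77 and 10.68 in T2, and 10.70, 10.53 and 10.61 in T10. The rounds overlapped, and T10 minus T1 was -0.14 log2 units with a 95% interval of -0.41 to 0.12 (limma's adjusted p = 0.529). That interval leaves room for a small change either way and lies wholly below the intervals of crb and sdt.

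**Figure D2:**
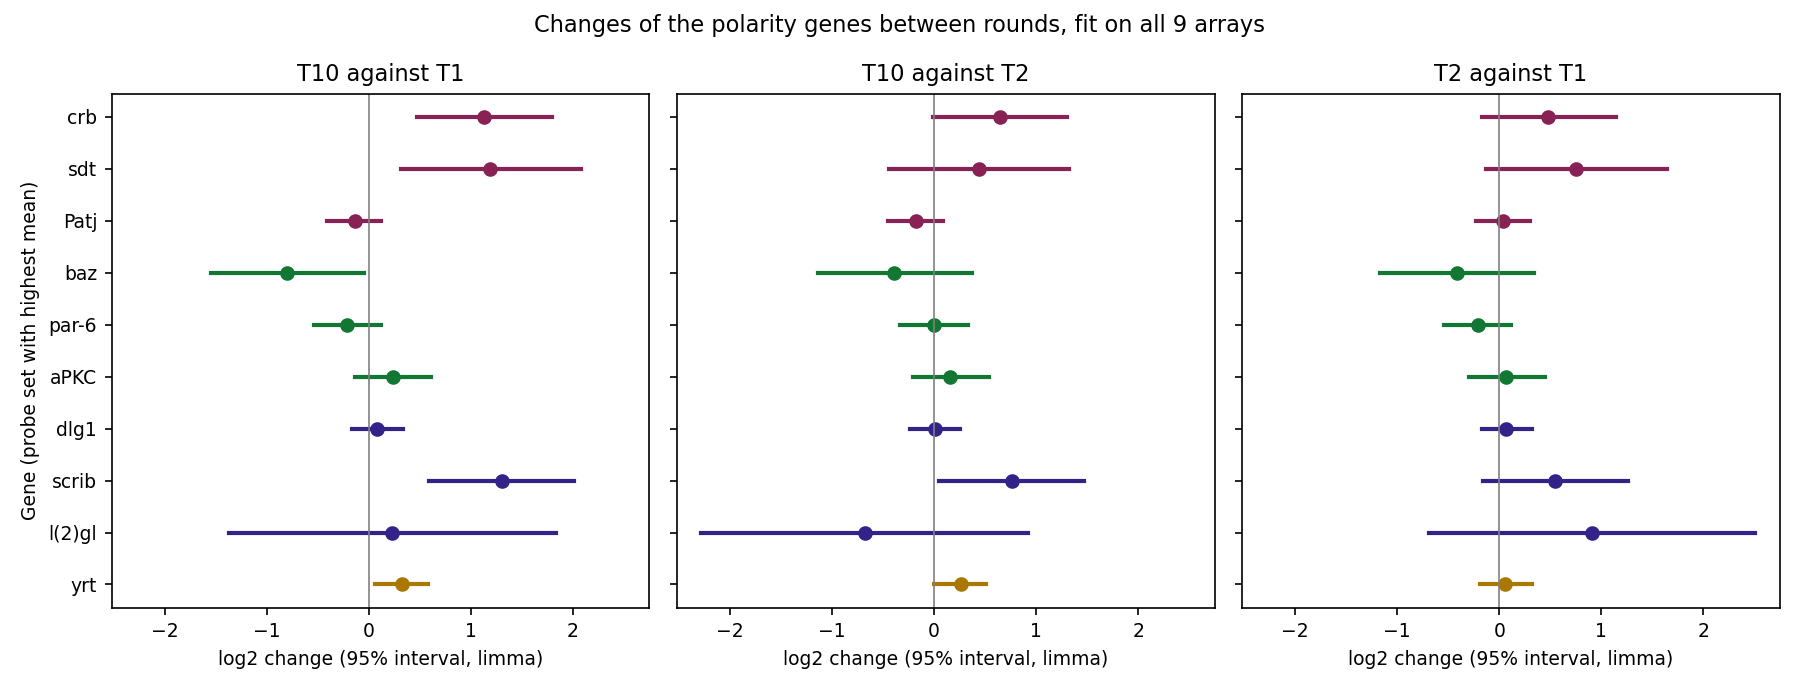
Points give the log2 change of each polarity gene between rounds and lines its 95% interval, from limma on all 9 arrays; the panels are T10 against T1, T10 against T2 and T2 against T1. In T10 against T1 the intervals of crb, sdt, scrib and yrt lie above 0 and that of baz lies below it, and in T2 against T1 every interval spans 0.

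In the Par complex, baz encodes Bazooka (Par-3 in other animals), the scaffold that positions adherens junctions and is kept out of the apical domain by aPKC and Crumbs. It was the 1 member whose T10 arrays all lay below those of T1. The values were 9.53, 8.58 and 9.10 in T1, 8.85, 9.04 and 8.08 in T2, and 8.31, 7.93 and 8.57 in T10. Separation was narrow, since the lowest T1 array read 8.58 and the highest T10 array 8.57. T10 was 0.80 log2 units below T1 (a change of -0.80, standard error 0.325, 95% interval -1.55 to -0.05), which is 1.74-fold lower, and the adjusted p in limma was 0.216 on all 9 arrays and 0.125 without T2 replicate 3. The mean level went from 9.07 ± 0.476 in T1 over 8.66 ± 0.508 in T2 to 8.27 ± 0.322 in T10 (SD, n = 3), so the order of the rounds was the reverse of that of crb.

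Neither of Bazooka's partners in the complex showed a difference beyond the spread of the arrays. The adaptor gene par-6, whose product ties aPKC to Cdc42 and to Crumbs, read 10.99, 10.69 and 10.51 in T1, 10.49, 10.62 and 10.46 in T2, and 10.38, 10.51 and 10.68 in T10. All rounds overlapped, and T10 minus T1 was -0.21 log2 units (95% interval -0.54 to 0.12, limma's adjusted p = 0.457). The kinase gene aPKC, whose product excludes basolateral proteins from the apical side, read 8.16, 7.91 and 8.34 in T1, 8.28, 8.26 and 8.09 in T2, and 8.10, 8.60 and 8.42 in T10. The change was 0.24 log2 units (95% interval -0.14 to 0.61, adjusted p = 0.451), and the other aPKC probe set, 1640307_at, gave 0.21 (95% interval -0.20 to 0.62). Within the Par complex, then, 0 of 3 genes passed limma on all 9 arrays, beside 0.0107% of all probe sets. Separation was downward for 1 of them, beside 15.1% of all probe sets, and the other 2 overlapped.

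In the Scribble group, scrib encodes the leucine-rich repeat and PDZ scaffold of the lateral membrane. Its brightest probe set, 1633904_at, had the largest change of the 10 genes between T1 and T10. The values were 8.90, 8.96 and 9.64 in T1, 9.30, 9.52 and 10.32 in T2, and 10.76, 10.34 and 10.31 in T10. All T10 arrays were above all T1 arrays, and the highest T2 array, replicate 3, lay within the T10 range. T10 exceeded T1 by 1.30 log2 units (standard error 0.307, 95% interval 0.59 to 2.01), or 2.47-fold. Limma's adjusted p was 0.0927 on all 9 arrays, 0.0384 for T10 and T1 alone and 0.0201 without T2 replicate 3.

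The 5 scrib probe sets did not move together. Probe set 1639402_a_at read 8.22, 8.07 and 8.38 in T1, 8.91, 8.50 and 8.63 in T2, and 8.74, 8.69 and 8.58 in T10, so that it was already higher in T2. Probe set 1629115_s_at read 8.85, 8.57 and 8.67 in T1, 8.50, 7.68 and 7.82 in T2, and 8.30, 7.83 and 8.07 in T10, lower in every later array than in T1. The changes from T1 to T10 were 0.45 log2 units (standard error 0.133, adjusted p = 0.122 in limma) and -0.63 (standard error 0.225, adjusted p = 0.172). Thus 2 probe sets of the same gene were separated upward and 1 downward, beside 12.9% and 15.1% of all probe sets.

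The last 2 scrib probe sets were highest in T2. Probe set 1635642_at read 7.10, 7.56 and 8.83 in T1, 10.20, 9.55 and 7.22 in T2, and 7.41, 7.40 and 7.26 in T10. T2 replicates 1 and 2 were the highest arrays, and T2 replicate 3 read like T10. On all 9 arrays T10 minus T2 was -1.63 log2 units with limma's adjusted p at 0.313; without T2 replicate 3 it was -2.52, a 5.73-fold lower level, with an adjusted p of 0.0247. Probe set 1632164_at read 6.73, 6.44 and 7.13 in T1, 7.98, 7.51 and 6.93 in T2, and 7.05, 7.13 and 7.15 in T10, with the same arrays on top. Averaged over its 5 probe sets, scrib was 0.20 log2 units higher in T10 than in T1 (adjusted p = 0.683) and 0.24 lower in T10 than in T2 (a change of -0.24), so that its call rests on the choice of the brightest probe set.

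The within-array difference between 1633904_at and 1629115_s_at, a pair chosen after their values were seen, describes this split. It was 0.05, 0.39 and 0.97 log2 units in T1, 0.80, 1.84 and 2.50 in T2, and 2.46, 2.51 and 2.24 in T10. The 3 T10 arrays were close together, the mean difference was 0.47 ± 0.465 in T1 and 2.40 ± 0.144 in T10 (SD, n = 3), and no test was made on it. Which transcripts of scrib each probe set detects is not given by the annotation used here.

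**Figure D3:**
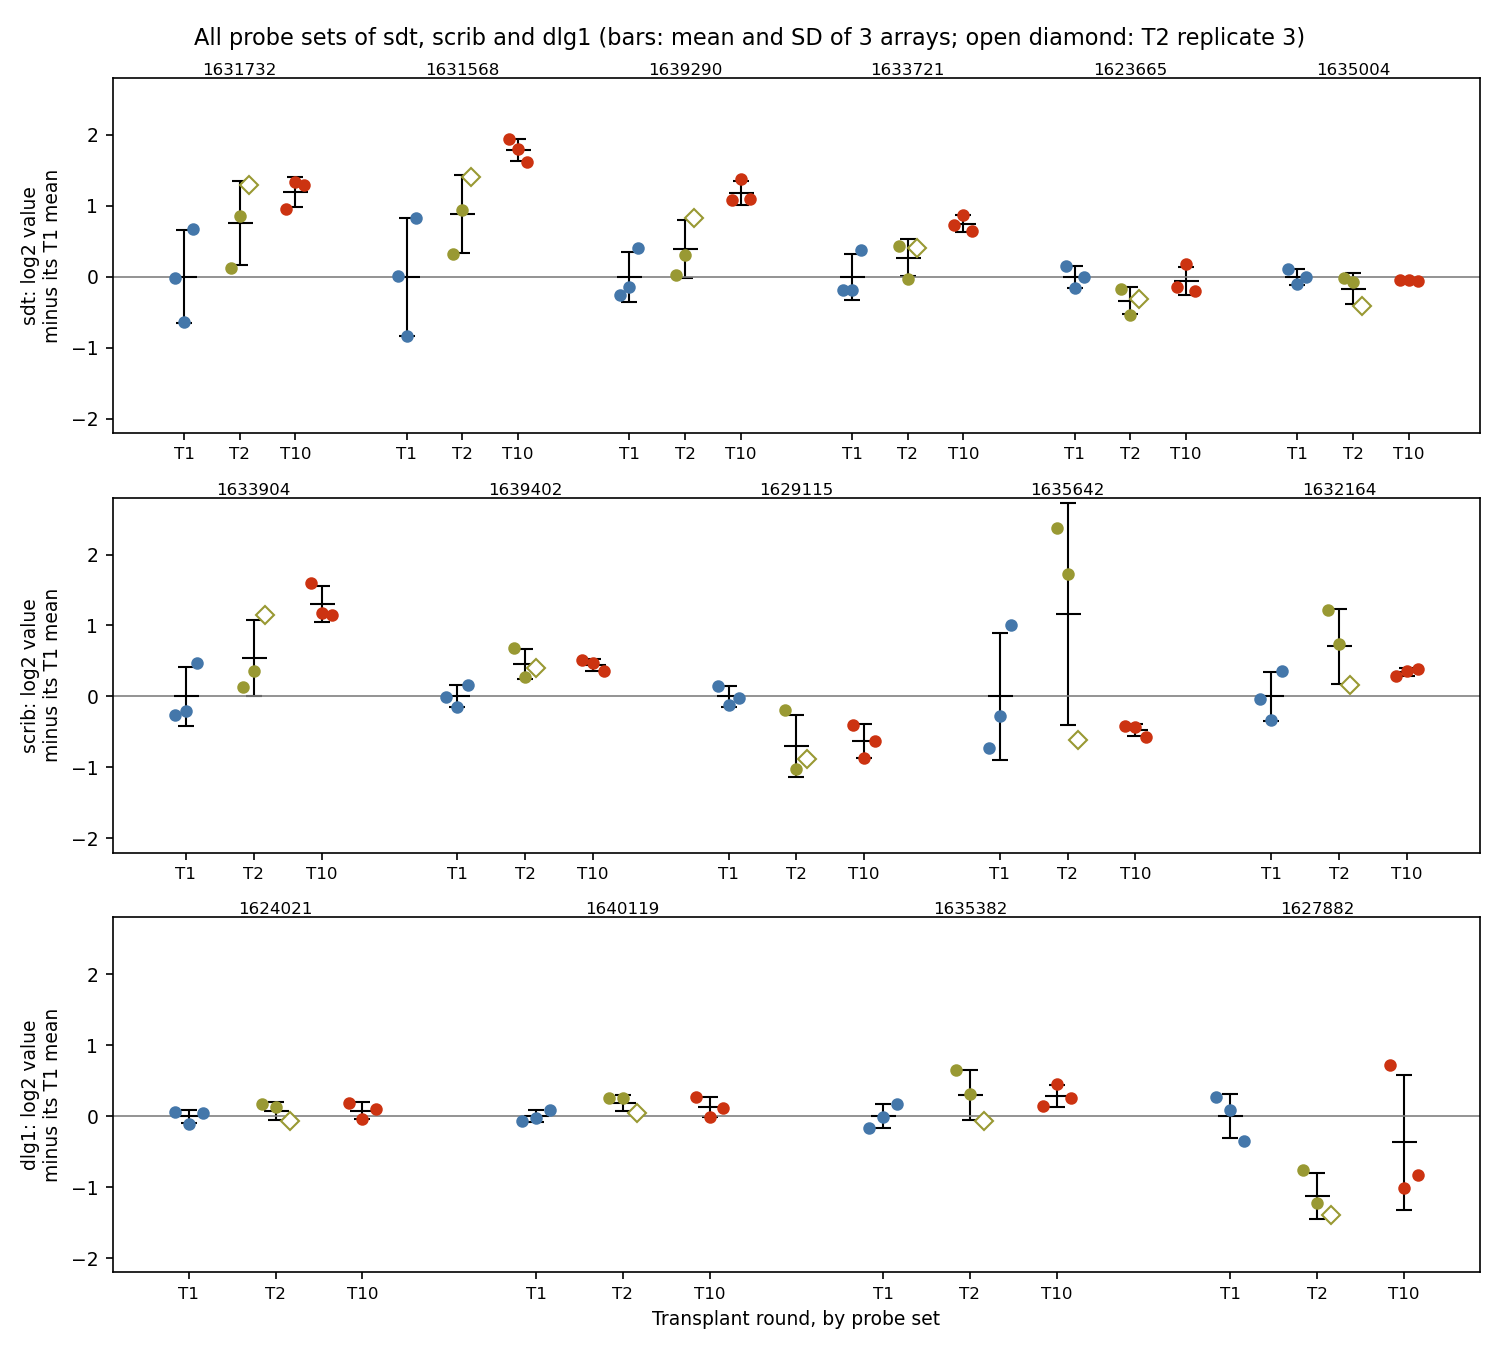
The log2 value of every probe set of sdt, scrib and dlg1, relative to its own T1 mean, is plotted for each array by round; dots are arrays, the open diamond is T2 replicate 3, and bars give the mean and SD of 3 arrays. In sdt, 4 of 6 probe sets are higher in T10 and 2 are flat, whereas in scrib 1633904 and 1639402 are higher in T10, 1629115 is lower, and 1635642 and 1632164 peak in T2.

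Discs large, the product of dlg1, is the membrane-associated guanylate kinase scaffold that gathers at septate junctions. Its brightest probe set, 1624021_a_at, was the steadiest of the 10 genes from T1 to T10, at 11.56, 11.40 and 11.55 in T1, 11.67, 11.63 and 11.43 in T2, and 11.69, 11.46 and 11.60 in T10. The change was 0.08 log2 units (standard error 0.107, 95% interval -0.17 to 0.33, adjusted p = 0.727 in limma). Probe sets 1640119_a_at and 1635382_at gave 0.12 and 0.29 log2 units, and their T1 and T10 arrays overlapped. The dim probe set 1627882_at read 6.88, 6.70 and 6.27 in T1, 5.86, 5.39 and 5.23 in T2, and 7.34, 5.61 and 5.79 in T10; it was 1.12 log2 units lower in T2 than in T1 (a change of -1.12, standard error 0.442, adjusted p = 0.760), with no overlap between those rounds.

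Lethal giant larvae, the product of l(2)gl, binds the lateral cortex and is kept off the apical side by aPKC. Its 1 probe set, 1637410_s_at, read 5.35, 5.14 and 7.14 in T1, 6.71, 7.14 and 6.50 in T2, and 4.72, 6.83 and 6.76 in T10. It was the most variable member in T1 and in T10, with SDs of 1.10 and 1.20, though not in T2 (0.326), and it is among the probe sets below the median level. T10 minus T1 was 0.23 log2 units with a 95% interval of -1.37 to 1.83 (limma's adjusted p = 0.891), and the sign turned when either of T1 replicates 1 and 2 or either of T10 replicates 2 and 3 was left out. The change seen for crb lies inside that interval.

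The FERM protein Yurt, encoded by yrt, binds the Crumbs tail and limits its activity. The gene read 9.55, 9.39 and 9.62 in T1, 9.47, 9.54 and 9.74 in T2, and 9.74, 9.94 and 9.84 in T10. Replicates were tight, and the T10 arrays lay above every T1 array. T10 exceeded T1 by 0.32 log2 units (standard error 0.111, 95% interval 0.06 to 0.58), or 1.25-fold, with limma's adjusted p at 0.163 on all 9 arrays and 0.114 without T2 replicate 3.

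**Figure D4:**
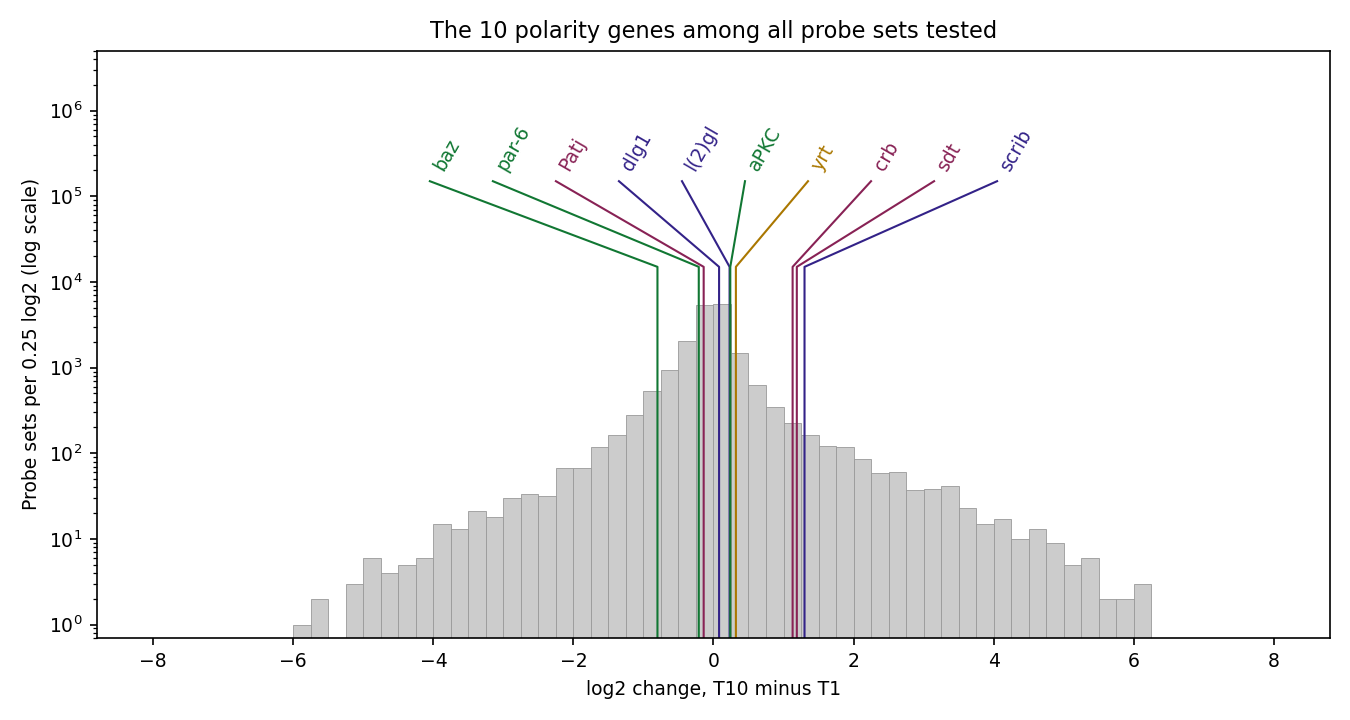
The grey histogram counts all 18769 probe sets by their log2 change from T1 to T10 on a log-scaled vertical axis, and colored lines mark the 10 polarity genes by their brightest probe sets. The lines of scrib, sdt and crb stand to the right, where 4.26%, 4.64% and 4.92% of probe sets were at least as far up, and that of baz to the left, where 6.81% were at least as far down.

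Set among all probe sets, these changes were not at the extremes. A change upward at least as large as that of scrib was seen at 4.26% of probe sets, as that of sdt at 4.64% and as that of crb at 4.92%, and a change downward at least as large as that of baz at 6.81%. For yrt the share was 15.5%, and for the other 5 genes it was 19.3% or more. The median absolute change was 0.278 log2 units for the 10 members and 0.190 for all probe sets.

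Against T2, the same genes differed less. Limma on all 9 arrays called 0 members between T10 and T2, against 0% of all probe sets, with 1 member and 17.0% of all probe sets at an unadjusted p under 0.05. The fit on those 2 groups alone also called 0 members, against 0%. The change from T2 to T10 was 0.65 log2 units for crb (adjusted p = 0.297), 0.44 for sdt, 0.76 for scrib (adjusted p = 0.275), -0.39 for baz and 0.26 for yrt. The arrays of these 5 genes overlapped, in each gene through T2 replicate 3 alone. No member gene was separated upward, where 11.9% of all probe sets were, or downward, where 9.41% were. Among single probe sets 3 were separated upward, namely 1631568_a_at, 1639290_at and 1633721_at of sdt.

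Leaving out T2 replicate 3 moved these values without giving a member gene a call. Between the mean of T1 (0) and that of T10 (1), that array stood at 0.81 for crb, 1.08 for sdt, 0.88 for scrib, 1.24 for baz and 0.69 for yrt, close to T10 in each. Without it, T10 minus T2 was 0.87 for crb (adjusted p = 0.125), 0.71 for sdt (0.343), 1.06 for scrib (0.0547), -0.67 for baz (0.241) and 0.34 for yrt (0.145), by limma. Again 0 member genes passed, against 7.46% of all probe sets, while 2 of their 23 probe sets did, 1639290_at of sdt (1.01 log2 units, adjusted p = 0.0387) and 1635642_at of scrib, given above. Without that array, T2 and T10 no longer overlapped for crb, sdt, scrib, baz and yrt. The highest remaining T2 array read 9.87 for crb, 12.03 for sdt, 9.52 for scrib and 9.54 for yrt. The lowest T10 array read 10.22, 12.13, 10.31 and 9.74. For baz the lowest remaining T2 array read 8.85 and the highest T10 array 8.57. The share of all probe sets separated without that array was not computed.

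From T1 to T2, none of the members differed past the threshold. Limma on all 9 arrays called 0 of them, against 0.00533% of all probe sets, the fit on the 2 groups alone 0, against 0.00533%, and the fit without T2 replicate 3 again 0, against 0.00533%. The number of members at an unadjusted p under 0.05 was 0, against 6.16% of all probe sets. The change was 0.91 log2 units for l(2)gl (95% interval -0.69 to 2.51), the most variable gene in T1, and 0.75 for sdt, 0.55 for scrib, 0.48 for crb and -0.41 for baz on all 9 arrays. Without T2 replicate 3 the same changes were 1.05, 0.49, 0.24, 0.27 and -0.12, and the other 5 members lay within 0.21 log2 units of 0 in both fits. No member gene was separated in either direction, where 2.57% of all probe sets were upward and 6.86% downward. At single probe sets, 1639402_a_at of scrib was separated upward, and 1629115_s_at of scrib, 1623665_at of sdt and 1627882_at of dlg1 downward.

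Other genes of the machinery were taken from 4 lists, and limma on all 9 arrays called 0 of their genes in any comparison. Between T10 and T1, 3 Crumbs partners, 1 Par partner, 2 Scribble partners and 1 endocytic gene, of 10, 5, 4 and 2 with a probe set, had an unadjusted p under 0.05 there, beside 20.8% of all probe sets. In the fit of T10 and T1 alone, 5.98% of all probe sets passed. Of 11 partners and regulators of Crumbs, 10 had a probe set, 1 was higher and 0 lower in T10 for T10 and T1 alone, and their median change was -0.07 log2 units beside -0.01 for all probe sets. Separation of the T10 from the T1 arrays was upward for 1 of the 10 and downward for 3 (alpha-Spec, Vps35 and Exo84, with changes of -0.24, -0.45 and -0.35), beside 12.9% and 15.1% of all probe sets. The spectrin gene kst was 2.23-fold lower in T10 (a change of -1.16, adjusted p = 0.170 on all 9 arrays), with overlap. The gene that passed was ex, for Expanded, a FERM protein of the Hippo pathway that binds Crumbs at the apical membrane. It read 7.98, 7.86 and 8.33 in T1, 8.51, 8.27 and 9.63 in T2, and 10.08, 10.43 and 9.64 in T10. T10 was 3.98-fold above T1 (1.99 log2 units), with limma's adjusted p at 0.0843 on all 9 arrays, 0.0119 on those 2 groups alone and 0.00486 without T2 replicate 3. The T2 replicate 3 array again read like T10.

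Of 5 Scribble and lateral partners, 4 had a probe set. Their median change was 0.73 log2 units, beside -0.01 for all probe sets. For T10 and T1 alone, 1 was higher and 0 lower, where 5.98% of all probe sets passed. The one that passed was gukh, whose product, GUK-holder, links Discs large to Scribble. It read 7.08, 6.89 and 7.17 in T1, 6.78, 6.65 and 8.66 in T2, and 9.04, 9.20 and 8.77 in T10, with adjusted p of 0.0974 on all 9 arrays and 0.0042 on T10 and T1 alone by limma. T10 was 3.88-fold above T1, and T2 replicate 3 stood far above the other T2 arrays. Nrx-IV, a transmembrane protein of septate junctions, was 2.49-fold higher (adjusted p = 0.0927 on all 9 arrays and 0.0817 on T10 and T1 alone) and passed without T2 replicate 3 (0.0486). Both gukh and Nrx-IV were separated upward, beside 12.9% of all probe sets. The remaining genes, cora and sds22, overlapped between T1 and T10, with changes of 0.15 and -0.18 log2 units.

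Of 10 Par partners and regulators, 5 had a probe set and 0 passed for T10 and T1 alone; their median change was -0.23 log2 units. The smallest p there belonged to sktl, the gene of a phosphoinositide kinase that helps to hold Bazooka at the membrane in fly epithelia, at -0.44 log2 units (adjusted p = 0.0731 by limma, and 0.0424 without T2 replicate 3). Separation of the T10 from the T1 arrays was downward for 2 of the 5 Par partners (14-3-3zeta and sktl), beside 15.1% of all probe sets. It was upward for 1 (14-3-3epsilon, a change of 0.10), beside 12.9%. The change of 14-3-3zeta was -0.88 log2 units (adjusted p = 0.105 in limma on all 9 arrays). Of 4 endocytic genes, 2 had a probe set and 0 passed for T10 and T1 alone. Vps25, an ESCRT gene, was 0.27 log2 units higher in T10 (adjusted p = 0.165 by limma there).

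**Figure D5:**
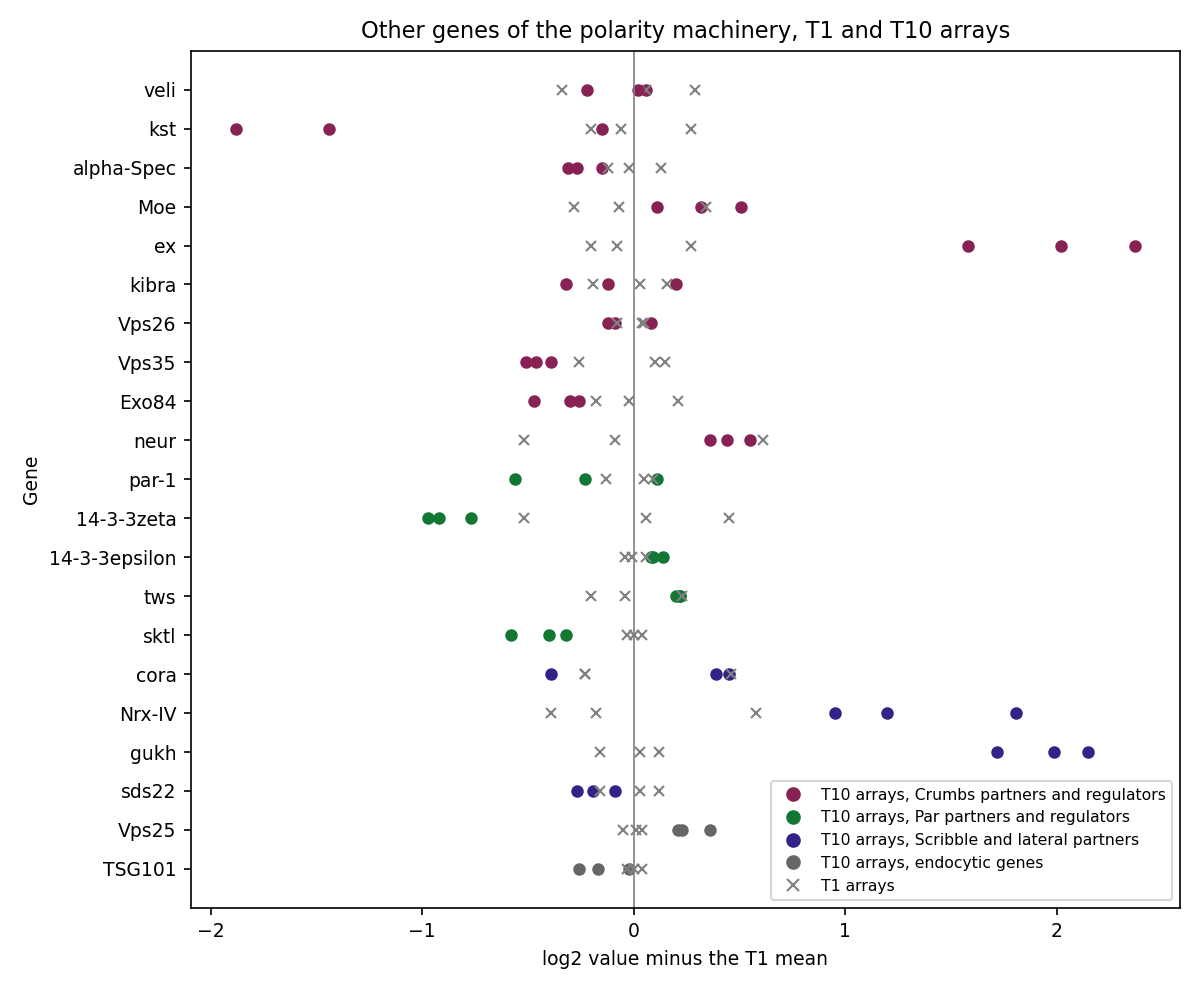
Log2 values of the other genes of the polarity machinery in the single T1 arrays (crosses) and T10 arrays (dots), each minus the T1 mean of its gene, with colors by list. The T10 arrays of ex, 14-3-3epsilon, Nrx-IV, gukh and Vps25 lie to the right of all T1 arrays of the same gene. Those of alpha-Spec, Vps35, Exo84, 14-3-3zeta and sktl lie to the left, and the other genes overlap. Of all probe sets, 12.9% were separated upward and 15.1% downward.

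Over the 9 arrays, the named probe sets most like crb were CG10211 (Pearson r = 0.986), Pat1 (0.979), CG12075 (0.969), CG16786 (0.961) and Tl (0.948), the last of them the Toll receptor. The points share arrays, rounds and T2 replicate 3, so these are descriptions only. Of 7659 named probe sets above the median level, 78, or 1.02%, had an r over 0.9 with crb, and the median r was -0.126. The main probe set of scrib had an r of 0.935 with crb and that of sdt 0.687.

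Markers of trachea and epidermis were mostly higher in T10, as were the brightest probe sets of crb, sdt and scrib. Of the 6 listed, 5 had a probe set, and 4 of them (verm, serp, kkv and grh) were higher in every T10 array than in every T1 array, by 5.38, 4.98, 5.07 and 2.19 log2 units, beside 12.9% of all probe sets. Limma's adjusted p for them was 0.0958, 0.0932, 0.109 and 0.103 on all 9 arrays, past the threshold for none, and all 4 passed for T10 and T1 alone, where 5.98% of all probe sets did. The mean over the list was 6.33 to 7.64 in the T1 arrays, 6.73 to 10.03 in T2 and 9.80 to 10.35 in T10, and the highest T2 array was replicate 3. The other gene, btl, an FGF receptor of tracheal cells, went the opposite way, at 8.99, 9.29 and 10.58 in T1 and 7.69, 8.18 and 8.45 in T10. Its change was -1.51 log2 units (limma's adjusted p = 0.237 on all 9 arrays). Its T10 arrays all lay below its T1 arrays, beside 15.1% of all probe sets. The transcription factor grh, which is active in epithelia of ectodermal origin, read 5.09, 4.87 and 5.47 in T1, 5.08, 5.14 and 7.23 in T2, and 6.86, 7.87 and 7.26 in T10. The part of these markers in the levels of crb, sdt and scrib was not tested.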

How the data were processed

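Whole tumors were profiled on single-color Affymetrix arrays, 9 in all, with 25 ng of total RNA amplified over 17 cycles and 8 µg of labeled cDNA per array. The authors processed the scans with affy and affyPLM in R (versions not given in the sources used here), and deposited RMA background-corrected, summarized values on the log2 scale. RMA values have no unit of depth, and bring low signals toward a floor, so changes of dim probe sets may be understated.

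The deposited values, rounded to 2 decimals, were used as they stand; 0 columns were without a sample. The table holds 18952 probe sets, of which 18769 were tested after removal of 183 controls. The platform annotation gave 1 symbol to 13647, several to 402 and none to 4720, and 13544 were updated through Entrez identifiers to RefSeq annotation of Release 6, for names only. In the array maker's naming, an ID ending in s_at has probes that match several transcripts, not necessarily of 1 gene, and an ID ending in a_at transcripts of 1 gene. The brightest probe sets of sdt, Patj, par-6 and l(2)gl end in s_at, as does 1629115_s_at of scrib. Sequences and coordinates of the probe sets were not used here.

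Rounds and replicates came from the sample labels. Tests used limma 3.58.1 (lmFit and eBayes, no trend) in R 4.3.3 with Benjamini-Hochberg adjustment over all probe sets, after a check on simulated data. Named were all 10 members and the 5 genes most like crb. From each of 4 lists of other polarity genes, up to 4 past the threshold on T10 and T1 alone were named, or else the 1 with the smallest p. Nrx-IV, cora, sds22, 14-3-3zeta, 14-3-3epsilon, kst, alpha-Spec, Vps35, Exo84 and single cell type markers were named beyond this after their values were seen. The members and lists were chosen with earlier results of these data known. Alternatives were the groups in the fit, a replicate block, array weights, moderation, a filter on dim probe sets, quantile normalization, the mean of a gene's probe sets, the threshold, and leaving out each array. The number of arrays limits the precision.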

Additional observations from a re-analysis of the deposited data

How the results depend on the processing

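Between T10 and T1 the count of member genes past limma's threshold was 0 on all 9 arrays, 1 with T10 and T1 alone (scrib), 3 with array weights (crb, sdt and scrib, adjusted p = 0.0319, 0.0343 and 0.0216), 2 at an adjusted p under 0.1 (crb and scrib), and 0 to 2 when single arrays were left out, with 2 only without T2 replicate 3. T2 replicate 3 had the lowest array weight, at 0.416. The count over all probe sets moved from 2 to 1122 on the 2 groups alone, 1997 with weights, 817 at an adjusted p under 0.1, 519 without T1 replicate 3 and 1430 without T2 replicate 3. For T10 against T2, and for T2 against T1, the member count was 0 under every alternative run. Over all probe sets, the T10 against T2 count was 0 on all 9 arrays, 1118 with array weights and 1401 without T2 replicate 3. Between T2 and T1 it was 1 on all 9 arrays and 34 without T1 replicate 3. The labels do not say that a replicate number marks 1 metastasis, and deviations of same-numbered samples correlated at -0.284 to 0.188; with the replicate number as a block, 0 member genes passed and 5 probe sets in all did between T10 and T1.

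Over all alternatives the T10 minus T1 change was 0.86 to 1.31 for crb, 0.80 to 1.53 for sdt, -1.04 to -0.57 for baz and 0.26 to 0.37 for yrt. For scrib it was 0.20 to 1.54, with 0.20 for the mean of its probe sets, and adjusted p of 0.0201 to 0.683. Signs turned for some values, none of them past the threshold. With single arrays left out, T10 minus T1 of l(2)gl ran from -0.14 to 0.92, T10 minus T2 of l(2)gl from -1.04 to 0.01 (-0.68 on all 9 arrays) and of dlg1 from -0.07 to 0.07, and T2 minus T1 from -0.05 to 0.10 for Patj, -0.04 to 0.18 for aPKC and -0.01 to 0.12 for yrt. Array weights gave -0.05 for dlg1 between T10 and T2, and the mean of a gene's probe sets gave -0.24 for scrib there, against 0.76 for its brightest probe set, and -0.03 for aPKC and -0.14 for dlg1 between T2 and T1. The cause was not tested. The filter on dim probe sets left 9 members, without l(2)gl.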
